A study of Homo sapiens with 9 samples.

Results

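The NADH shuttles, malic enzymes and glutamate entry of mitochondria were followed through 9 genes in 3 groups of ACHN cells, a human renal cell carcinoma line that grows as an adherent layer. The genes are GOT1, GOT2, GPD1L, GPD2, NNT, ME1, ME2, GLUD1 and NAMPT. They were chosen by name, and a gene counted as found where its symbol stood in the authors' filtered log2 table, which held all 9 of them among 18859 genes. The larger deposited table held 30673 genes.

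The 9 libraries comprised 3 of cells given 0.1% DMSO (the vehicle), 3 of cells given 25 nM piericidin A and 3 of cells given 50 nM piericidin A. All were grown in MEM on 6-well plates. Piericidin A is a bacterial natural product that blocks respiratory complex I where ubiquinone binds. Treatment time, and whether piericidin A wells also held DMSO, are not given in the sources used here. Separate cultures are not stated for the replicates, so p-values measure only the spread between these libraries, which may be technical.

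Complex I is the main site at which mitochondrial NADH is oxidised back to NAD+. Cytosolic NADH cannot cross the inner mitochondrial membrane, so its electrons enter by the malate-aspartate shuttle or the glycerol 3-phosphate shuttle. In the first, the aminotransferases GOT1 and GOT2 move amino groups between aspartate and glutamate, each on its own side of that membrane. The glycerol 3-phosphate shuttle delivers the electrons to ubiquinone without complex I. Malic enzymes turn malate into pyruvate, GLUD1 feeds glutamate into the citric acid cycle, NNT converts NADH into NADPH, and NAMPT remakes NAD+ from nicotinamide. Aspartate, which the aminotransferases supply, is needed to make nucleotides.

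Levels are FPKM, fragments scaled by exon length and library depth, as the authors deposited them. Fragments recovered for the 18859 genes of the filtered table summed to 24365472 to 29245674 per library. Each of the 9 genes held 375 to 17204 fragments in a library. The lowest of these carries a counting error of 5.16%. Renal epithelial markers were present in every library, the 8 of them (among them PAX8, KRT8 and VIM) between 11.9 and 361 FPKM. The endothelial markers PECAM1, VWF and CDH5 reached at most 0.0199 FPKM, the leukocyte marker CD68 at most 0.0379 FPKM and the fibroblast markers DCN, LUM and PDGFRB at most 0.756 FPKM. The share of fragments from the mitochondrial genome was 2.53% ± 0.182 with DMSO, 4.36% ± 0.668 with 25 nM and 5.93% ± 0.831 with 50 nM (SD over 3 libraries). A single library, 25 nM replicate 3, stood apart. It differed from the other 25 nM libraries with a chi-square per degree of freedom of 17.2 and 19.6, against 2.48 between those 2. Its difference from them ran with gene length.

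At 25 nM, 5 of the 9 genes rose and 2 fell against DMSO, where 26.3% of all genes tested rose and 25.8% fell. At 50 nM, 1 rose and 6 fell, where 29.2% and 31.5% of all genes did. A gene counts as risen, fallen or called where its adjusted p was under 0.05, and changes are log2 fold changes with their standard error (SE). GOT2 was the gene that rose at both doses, and NNT and NAMPT the ones that fell at both. Each of the 9 was lower at 50 nM than at 25 nM, where 18.8% of all genes were. Under 2 other scalings of the libraries 4 of the 9 passed, where 9.81% and 7.43% of all genes were lower. In bulk RNA, fewer cells that express a gene and less of its RNA per cell cannot be told apart, which holds for all results here.

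**Figure D1:**
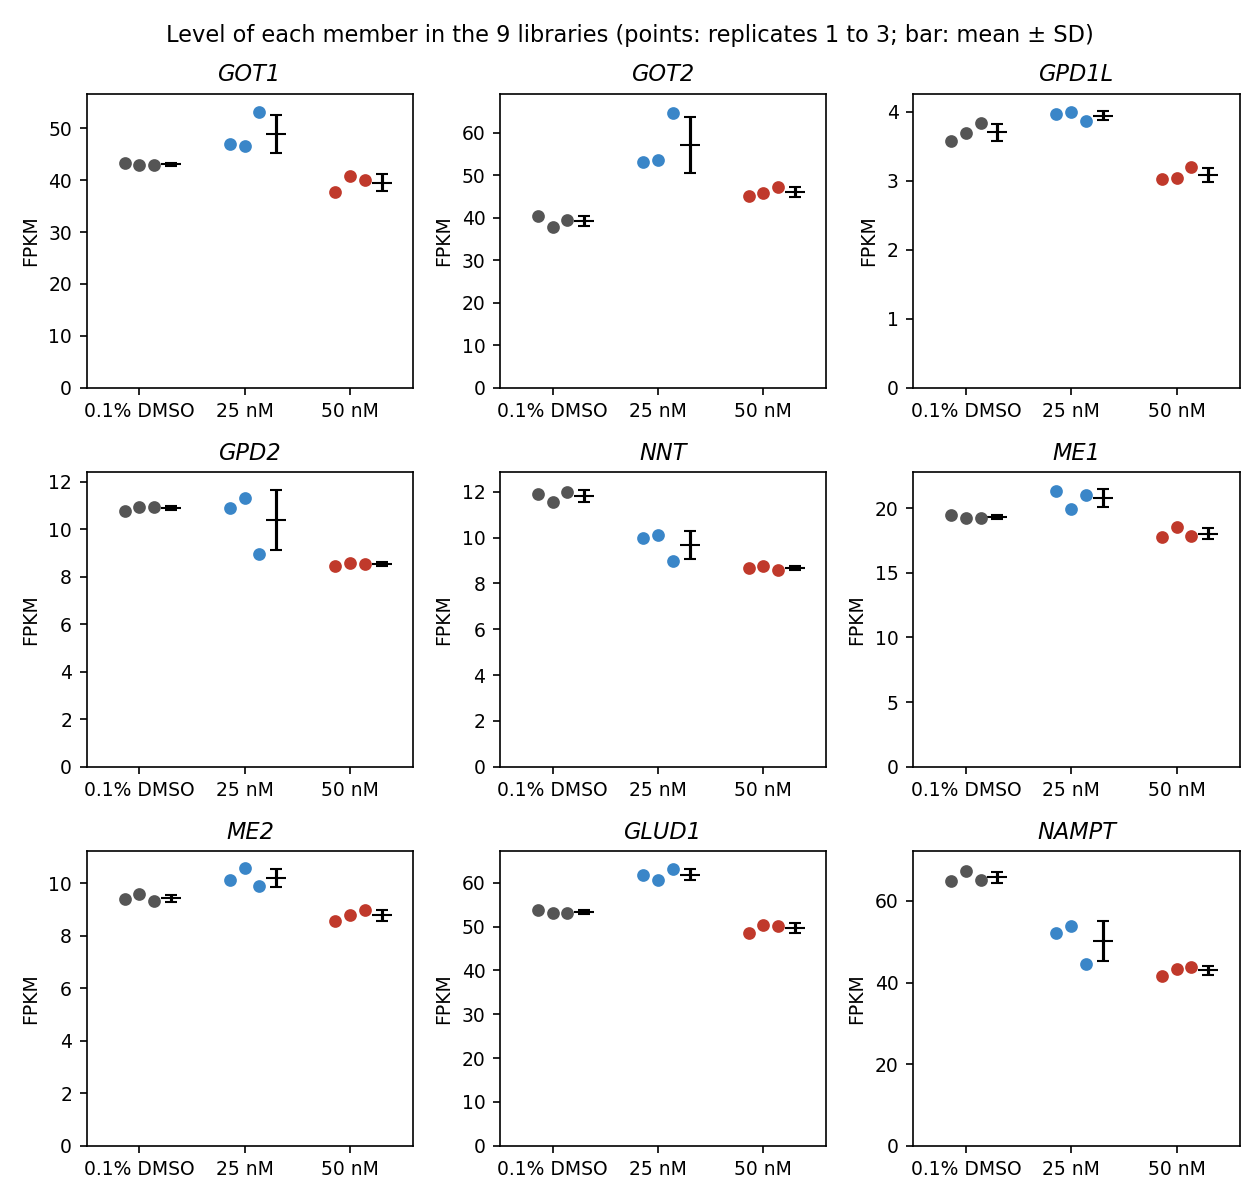
FPKM (vertical axis, from 0) of each of the 9 genes in the 9 libraries, by group from 0.1% DMSO through 25 nM to 50 nM piericidin A, with replicates 1 to 3 as points and the mean ± SD as a bar. GOT2 stands above DMSO at both doses, NNT and NAMPT stand below it at both, and each gene is lower at 50 nM than at 25 nM.

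GOT1, the cytosolic aspartate aminotransferase, lies on chr10:99396870-99430624 of hg38, minus strand. It stood at 43.4, 42.8 and 43.0 FPKM in the DMSO libraries, 46.9, 46.7 and 53.2 FPKM at 25 nM and 37.7, 40.8 and 39.9 FPKM at 50 nM. All 25 nM libraries lay above DMSO and all 50 nM libraries below it, with replicate 3 the highest of the 25 nM group. The rise at 25 nM was 0.18 on the log2 scale (SE 0.06, adjusted p = 0.0222, limma with Benjamini-Hochberg adjustment over 15541 genes, as for every adjusted p below). Without 25 nM replicate 3 it was 0.12 (adjusted p = 0.0264), and without any one DMSO library it missed the threshold of 0.05, with adjusted p up to 0.0637. The value at 50 nM was -0.12 (SE 0.06, adjusted p = 0.0783), which passed only without 25 nM replicate 3 (adjusted p = 0.00943) among the 9 fits that left out a library.

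GOT2, the mitochondrial aminotransferase, lies on chr16:58707131-58734357, minus strand. Its 3 libraries stood at 40.3, 37.8 and 39.5 FPKM in DMSO, at 53.2, 53.5 and 64.6 FPKM with 25 nM and at 45.0, 45.8 and 47.3 FPKM with 50 nM. No treated library overlapped the DMSO range, and every 50 nM library lay between the DMSO and the 25 nM libraries. GOT2 was 45.0% higher at 25 nM (log2 0.54, 95% interval 0.38 to 0.70, adjusted p = 2.99e-04), and still 0.44 higher on the log2 scale without replicate 3 of that dose. At 50 nM it was 17.5% higher (log2 0.23, 0.07 to 0.39, adjusted p = 0.0188). That call was lost without 50 nM replicate 3 (adjusted p = 0.0586) and without DMSO replicate 2 (adjusted p = 0.0664).

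The ratio of GOT2 to GOT1 within a library needs no scaling between libraries. It was 0.910 ± 0.0243 with DMSO, 1.16 ± 0.0423 with 25 nM and 1.17 ± 0.0384 with 50 nM (SD over 3 libraries), so the mitochondrial transcript passed the cytosolic one in all 6 treated libraries and in no DMSO library. The log2 differences from DMSO were 0.36 at 25 nM and 0.36 at 50 nM. An exact two-sided permutation test gave p = 0.1 for each, the smallest that 3 against 3 libraries allow, and 0.225 after adjustment over 9 ratio tests. Between the doses the ratio differed by 0.0013 on the log2 scale (exact permutation p = 1).

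**Figure D2:**
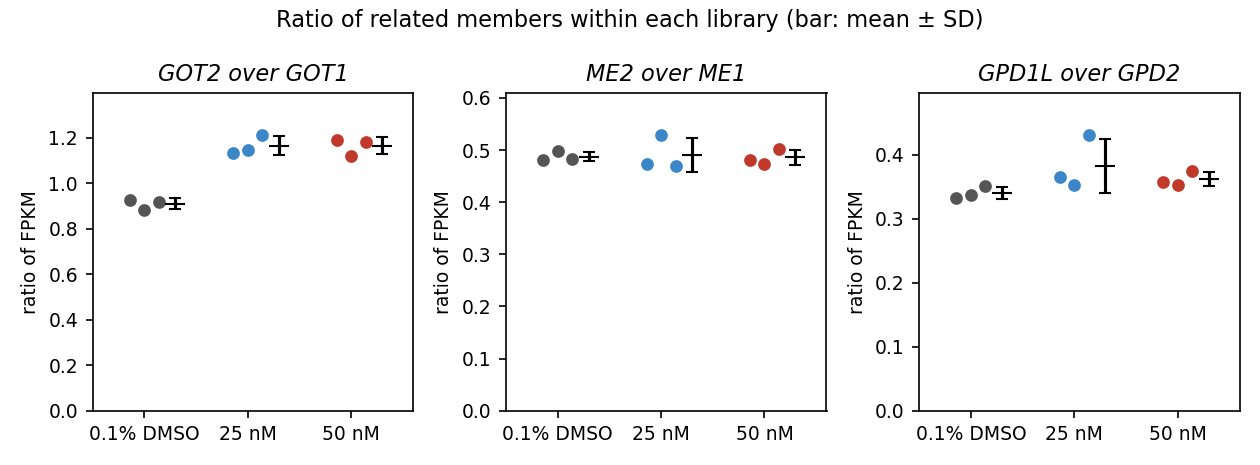
Ratio of FPKM within each library (vertical axis, from 0) for GOT2 over GOT1, ME2 over ME1 and GPD1L over GPD2, by group from 0.1% DMSO to 50 nM, with points for libraries and the mean ± SD as a bar. GOT2 over GOT1 lies between 1.12 and 1.21 in the 6 treated libraries and between 0.882 and 0.928 in the DMSO libraries, whereas ME2 over ME1 overlaps in all 3 groups.

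GOT2 and ME1 are shown with the bases upstream of their RefSeq start site (RefSeq, GRCh38.p14), since GOT2 was the gene higher at both doses and ME1 is a textbook target of the oxidative stress factor NRF2. Both windows hold a match to the letters TGACNNNGC, a core of the sequence NRF2 binds, searched on both strands. Capitals mark matches, and bases inside annotated exons are left out. The GOT2 stretch is chr16:58734358-58734566 and the ME1 stretch chr6:83431072-83431301, both minus strand, printed 5′ to 3′.
GOT2: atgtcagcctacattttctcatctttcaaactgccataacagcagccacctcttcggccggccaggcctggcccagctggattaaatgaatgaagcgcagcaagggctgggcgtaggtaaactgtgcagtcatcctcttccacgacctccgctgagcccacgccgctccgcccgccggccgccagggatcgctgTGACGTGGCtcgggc
ME1: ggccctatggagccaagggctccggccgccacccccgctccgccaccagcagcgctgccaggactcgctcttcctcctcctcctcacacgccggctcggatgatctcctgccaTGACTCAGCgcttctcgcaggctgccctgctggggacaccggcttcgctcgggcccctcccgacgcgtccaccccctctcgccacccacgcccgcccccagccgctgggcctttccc

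Of 35116 promoter windows of 250 bases in the same table, 10.91% held a TGACNNNGC match. Among the 9 genes it was found in GOT2, ME1 and NAMPT. The match in GOT2 began 56 bases before the start and contained ACGTG, the core letters of the hypoxia-inducible factor site, which 18.51% of windows held and which GPD1L and NNT also carried. TGATGNAA, letters of the ATF4 site, stood in GOT1 alone of the 9 and in 3.14% of windows. AAGGTCA, for the estrogen-related receptors, stood in none of the 9 and in 3.44% of windows. These are matches of letters and say nothing of binding.

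Both tested genes of the glycerol 3-phosphate shuttle fell at 50 nM, where 31.5% of all genes fell. With scaling by nuclear coding fragments 1 of them fell, where 25% of all genes did. GPD1L, which is related to the cytosolic glycerol 3-phosphate dehydrogenase GPD1, lies on chr3:32105689-32168713, plus strand. It read 3.58, 3.69 and 3.83 FPKM in DMSO, 3.97, 3.99 and 3.87 FPKM at 25 nM and 3.02, 3.03 and 3.20 FPKM at 50 nM. The 25 nM libraries lay just above DMSO and the 50 nM libraries clearly below both. At 50 nM it fell by 16.2% (log2 -0.25, SE 0.05, adjusted p = 0.00223), and the value at 25 nM did not pass (log2 0.09, adjusted p = 0.172). With scaling by nuclear coding fragments the 50 nM value was -0.13 and not called (adjusted p = 0.105). GPD1 itself was at 0.15 FPKM in DMSO, 0.18 FPKM at 25 nM and 0.29 FPKM at 50 nM on average, too low to be tested.

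GPD2, the mitochondrial enzyme that hands the electrons to ubiquinone, lies on chr2:156435290-156613735, plus strand. DMSO libraries gave 10.8, 10.96 and 10.9 FPKM, 25 nM libraries 10.9, 11.3 and 8.98 FPKM and 50 nM libraries 8.46, 8.60 and 8.56 FPKM. The 50 nM libraries were the lowest and close together, while at 25 nM replicate 3 fell away from the other 2, which overlapped DMSO. At 50 nM GPD2 fell by 21.4% (log2 -0.35, SE 0.08, adjusted p = 0.00338). The 25 nM value of -0.07 did not pass (adjusted p = 0.448) and became 0.03 without replicate 3. The GPD1L to GPD2 ratio was 0.340 ± 0.00977 with DMSO, 0.382 ± 0.0422 with 25 nM and 0.361 ± 0.0111 with 50 nM (SD over 3 libraries). The exact permutation p was 0.1 for each dose against DMSO and 0.7 between the doses.

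ME1 and ME2 differed from DMSO by 0.10 to 0.11 on the log2 scale, upwards at 25 nM and downwards at 50 nM. ME1, the cytosolic NADP-dependent enzyme, lies on chr6:83210389-83431071, minus strand, and stood at 19.5, 19.2 and 19.3 FPKM in DMSO, 21.3, 19.97 and 21.0 FPKM at 25 nM and 17.8, 18.5 and 17.8 FPKM at 50 nM. ME2, the mitochondrial enzyme, lies on chr18:50879049-50954257, plus strand, and stood at 9.38, 9.57 and 9.30 FPKM in DMSO, 10.1, 10.6 and 9.88 FPKM at 25 nM and 8.55, 8.78 and 8.97 FPKM at 50 nM. For both genes the 25 nM libraries were above and the 50 nM libraries below the DMSO libraries, without overlap.

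ME1 rose by 7.44% at 25 nM (log2 0.10, adjusted p = 0.0463) and fell by 6.62% at 50 nM (log2 -0.10, adjusted p = 0.0482). ME2 rose by 7.98% at 25 nM (log2 0.11, adjusted p = 0.0490), and its value of -0.10 at 50 nM did not pass (adjusted p = 0.0569). These calls sit at the threshold: of 18 alternative settings each, 3 kept the 25 nM call of ME1, 3 that of ME2 and 6 the 50 nM call of ME1. When 1 library was left out in turn, the 25 nM call held in 1 of 9 cases for ME1 (without 25 nM replicate 2, adjusted p = 0.0225) and in 1 of 9 for ME2 (without 25 nM replicate 3, adjusted p = 0.0218), with adjusted p up to 0.148 and 0.146 otherwise. The 50 nM call of ME1 held in 3 of 9, without 25 nM replicate 2 or 3 or 50 nM replicate 2, with adjusted p up to 0.127 otherwise. Without 25 nM replicate 3, ME2 at 50 nM passed (adjusted p = 0.0299). The ME2 to ME1 ratio was 0.488 ± 0.00919 with DMSO, 0.491 ± 0.0331 with 25 nM and 0.486 ± 0.0147 with 50 nM (SD over 3 libraries), with exact permutation p of 0.9 to 1.

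NNT, the proton-driven transhydrogenase of the inner mitochondrial membrane, lies on chr5:43602692-43707405, plus strand. It stood at 11.9, 11.5 and 11.99 FPKM in DMSO, 9.97, 10.1 and 8.96 FPKM at 25 nM and 8.65, 8.76 and 8.59 FPKM at 50 nM. In deposited FPKM the groups did not overlap and each step up in dose was lower. Scaled by fragment totals, 50 nM against 25 nM was -0.06 on the log2 scale (adjusted p = 0.467, limma). Scaled by nuclear coding fragments it was -0.03 (adjusted p = 0.740, limma). NNT fell by 18.0% at 25 nM (log2 -0.29, SE 0.05, adjusted p = 0.00140) and by 26.4% at 50 nM (log2 -0.44, SE 0.05, adjusted p = 7.70e-05). Both calls held under all 18 alternatives, and without 25 nM replicate 3 the fall at that dose was -0.23. Its antisense partner NNT-AS1 shares 217 exon bases with it (2.63% of its exon length) and averaged 2.01 FPKM in DMSO, 1.84 FPKM at 25 nM and 1.94 FPKM at 50 nM.

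GLUD1, glutamate dehydrogenase, lies on chr10:87050486-87094866, minus strand. It stood at 53.8, 53.1 and 53.0 FPKM in DMSO, 61.9, 60.6 and 63.2 FPKM at 25 nM and 48.5, 50.5 and 50.1 FPKM at 50 nM. The 3 groups were apart, with 25 nM the highest and 50 nM the lowest. GLUD1 rose by 16.0% at 25 nM (log2 0.21, SE 0.03, adjusted p = 8.26e-04), a call that held under all 18 alternatives. It fell by 6.82% at 50 nM (log2 -0.10, adjusted p = 0.0283), a call that 11 of 18 alternatives kept. It was lost without 50 nM replicate 1 and without DMSO replicate 1, 2 or 3, with adjusted p up to 0.0924, and with the replicate number as a block (adjusted p = 0.0582). Scaled by fragment totals the 50 nM value was -0.03 (adjusted p = 0.524), and scaled by nuclear coding fragments it turned to 0.03 (adjusted p = 0.545).

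GLUD1 shares 464 exon bases (13.2% of its exon length) with SHLD2 on the opposite strand, and no source used here says whether the libraries kept strand. SHLD2 averaged 8.27 FPKM in DMSO, 7.15 FPKM at 25 nM and 6.79 FPKM at 50 nM, and was lower at both doses (log2 -0.21 and -0.28, adjusted p = 0.00958 and 0.00155). The near-identical copy GLUD2 averaged 0.554 FPKM over the 9 libraries and the pseudogenes GLUD1P3 and GLUD1P7 1.14 and 0.808 FPKM, against 54.9 FPKM for GLUD1. Fragments of these copies may be counted in GLUD1 or the reverse.

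NAMPT, the rate-limiting enzyme of NAD+ salvage, lies on chr7:106248285-106286326, minus strand. It stood at 64.9, 67.4 and 65.1 FPKM in DMSO, 52.1, 53.9 and 44.5 FPKM at 25 nM and 41.7, 43.4 and 43.9 FPKM at 50 nM. Every treated library lay below every DMSO library, and 25 nM replicate 3 sat nearest to the 50 nM group. NAMPT fell by 24.0% at 25 nM (log2 -0.40, 95% interval -0.54 to -0.25, adjusted p = 0.00102) and fell by 34.6% at 50 nM (log2 -0.61, -0.76 to -0.46, adjusted p = 5.31e-05). Both held under all 18 alternatives, and without 25 nM replicate 3 the 25 nM value was -0.31. Its pseudogene NAMPTP1 averaged 1.10 FPKM, and the antisense gene that shares 786 of its exon bases averaged 0.0245 FPKM.

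**Figure D3:**
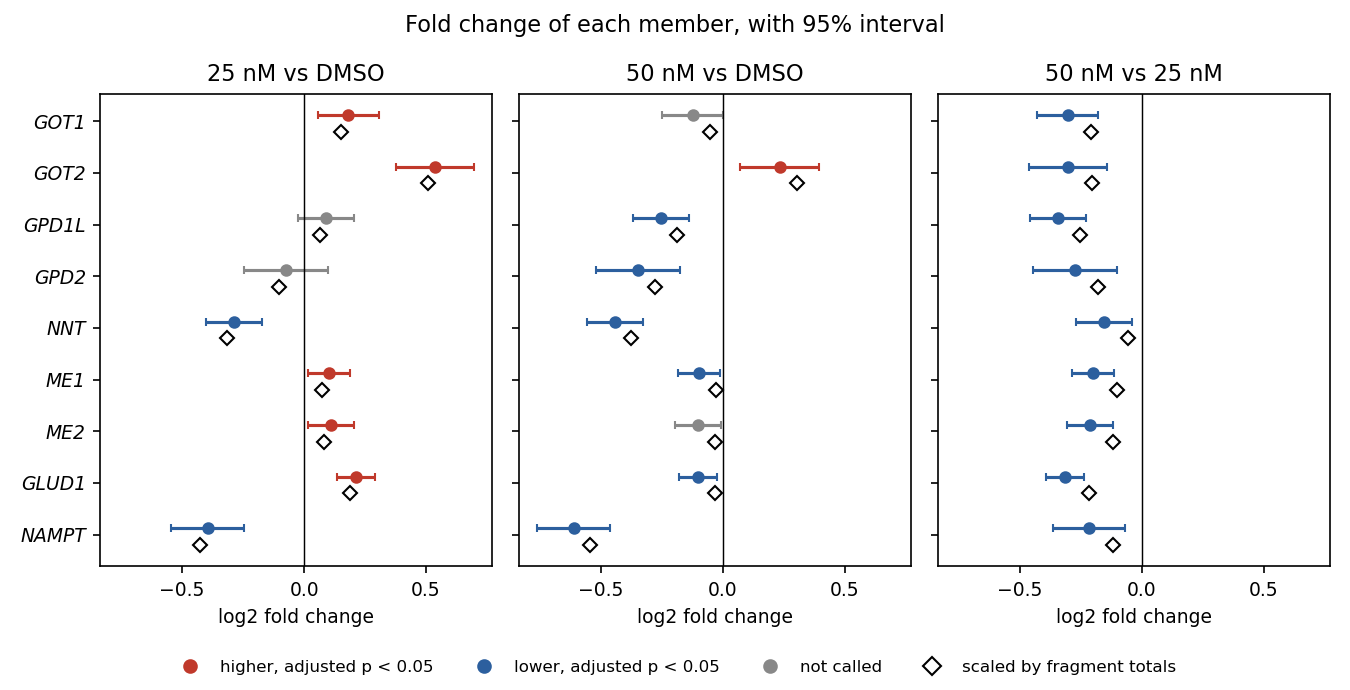
Log2 fold change (horizontal axis) of the 9 genes in the 3 comparisons, with filled points and 95% intervals from limma on deposited FPKM, coloured by call, and open diamonds for the same comparison scaled by fragment totals. GOT2 reaches 0.54 at 25 nM, NAMPT -0.61 at 50 nM, and in the comparison of 50 nM with 25 nM all 9 points lie below 0 under both scalings.

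Against DMSO, 7 of the 9 genes were called at 25 nM, where 52% of all 15541 genes tested were called (26.3% higher and 25.8% lower). At 50 nM 7 of 9 were called, where 60.7% of all genes were (29.2% higher and 31.5% lower). The median log2 fold change of the 9 was 0.10 at 25 nM and -0.12 at 50 nM, beside 0.02 and 0.0049 over all genes. Over the 11722 protein-coding genes tested the medians were -0.02 and -0.09. Of those, 28.0% were higher and 31.6% lower at 25 nM, and 25.7% and 39.9% at 50 nM. The libraries did not overlap for 8 of 9 genes at 25 nM (62.6% of all genes) and for 9 of 9 at 50 nM (70.4%). The 2 comparisons share the DMSO libraries. Without 25 nM replicate 3, 6 and 9 of the 9 were called, where 7737 and 10122 of the 15541 genes were. Without DMSO replicate 1, 2 or 3 the 25 nM count was 4 each time, where 6980, 6863 and 6834 of all genes were called. Without DMSO replicate 2 the 50 nM count was 4, where 8379 of all genes were called.

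Between the doses all 9 genes were called lower at 50 nM, where 33.5% of all genes were called, 18.8% lower and 14.7% higher. All 50 nM libraries lay below all 25 nM libraries for each of the 9, as for 24.4% of all genes. GPD1L had the largest drop (log2 -0.34, SE 0.05, adjusted p = 0.00152), followed by GLUD1 (-0.32, adjusted p = 4.28e-04), GOT1 (-0.31, adjusted p = 0.00349) and GOT2 (-0.30, adjusted p = 0.0112). GPD2 (-0.27), NAMPT (-0.22), ME2 (-0.21) and ME1 (-0.20) lay between, and NNT was the smallest (-0.16, adjusted p = 0.0414). The call of NNT held in 1 of 9 fits that left out a library (without 25 nM replicate 3, adjusted p = 0.00222) and that of NAMPT in 2 of 9 (without 25 nM replicate 3 or DMSO replicate 2). That of GPD2 was lost without any one of 25 nM replicates 1 and 2 and the 3 libraries of 50 nM. In the other fits the adjusted p reached 0.123 for NNT, 0.106 for NAMPT and 0.0727 for GPD2. The median of the 9 was -0.27, beside -0.01 over all genes tested and -0.06 over the protein-coding genes tested. Of the protein-coding genes 24.3% were lower and 13.2% higher.

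The number called between the doses depended on how libraries were scaled. The deposited FPKM already carry a scaling for composition. With each library scaled by its fragment total instead, 4 of the 9 were called lower (GOT1, GOT2, GPD1L and GLUD1), where 9.81% of genes were. With scaling by nuclear protein-coding fragments, an alternative added after the data were seen, the same 4 were called, where 7.43% of genes were. All 9 values stayed below 0 under both. Calls over all 15541 genes were 2288 higher and 2917 lower between the doses as deposited. Of the 14604 genes that both other scalings tested, they were 3509 and 1432 with fragment totals and 3997 and 1085 with nuclear coding fragments. That last scaling moved the median of all genes between the doses to 0.10, and for 50 nM against DMSO to 0.11 with 5784 higher and 3646 lower calls, against 4540 and 4901 as deposited. Under it 1 of the 9 was called higher and 3 lower at 50 nM against DMSO, where 39.6% of genes were higher and 25% lower. GOT1, ME1, ME2 and GLUD1 were then at 0.0069 to 0.03, and GPD1L was not called (log2 -0.13, adjusted p = 0.105).

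Gene length moved with these results. Over protein-coding genes in 4 equal bins by exon length, the median log2 fold change at 25 nM against DMSO was 0.19 in the shortest bin, then 0.02 and -0.08, and -0.21 in the longest. At 50 nM the medians were 0.08, -0.08, -0.14 and -0.23 against DMSO. For 50 nM against 25 nM they ran the other way, -0.11, -0.09, -0.06 and 0.00055 from the shortest to the longest. GOT1 (2424 bases) is in the shortest bin, GOT2, ME1, GLUD1 and GPD1L in the second, GPD2 in the third and NNT, NAMPT and ME2 in the longest. The same order marked 25 nM replicate 3, which exceeded the mean of replicates 1 and 2 by 0.17 in the shortest bin and was at -0.13 in the longest. In that library GOT2 was 0.28 and GOT1 0.19 above replicates 1 and 2, and GPD2, NAMPT and NNT were at -0.30, -0.25 and -0.16. Of the genes in the longest bin, NNT and NAMPT were called lower at 25 nM against DMSO. ME2, the longest of the 9 at 9363 bases, was called higher (adjusted p = 0.0490, limma), a call that 3 of 18 alternatives kept. The part of length in these results was not tested.

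**Figure D4:**
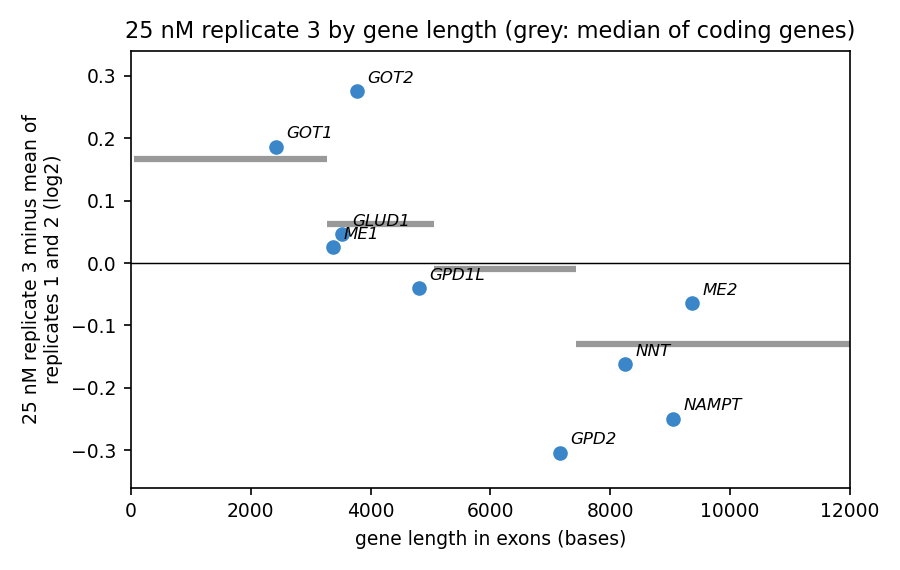
Difference of 25 nM replicate 3 from the mean of replicates 1 and 2 (log2 FPKM, vertical axis) against exon length in bases (horizontal axis) for the 9 genes, with the median of protein-coding genes in each of 4 length bins as a grey line. Values run from 0.28 for GOT2 down to -0.30 for GPD2, and the bin medians from 0.17 to -0.13.

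The order of the 9 genes by mean FPKM changed with treatment. FPKM is scaled by the annotated exon length of a gene, and which of its transcripts were present was not examined. Fold changes also moved with gene length, and the part of length in this order was not tested. In DMSO it was NAMPT (65.8 FPKM), GLUD1 (53.3), GOT1 (43.1), GOT2 (39.2), ME1 (19.3), NNT (11.8), GPD2 (10.9), ME2 (9.42) and GPD1L (3.70), and no 2 neighbours overlapped. At 25 nM GLUD1 (61.9 FPKM), GOT2 (57.1), NAMPT (50.2) and GOT1 (48.9) led, each overlapping the next, and GPD2, ME2 and NNT overlapped at 10.4, 10.2 and 9.68. At 50 nM the order was GLUD1 (49.7 FPKM), GOT2 (46.0), NAMPT (43.0), GOT1 (39.5) and ME1 (18.0), each apart from the next, then ME2, NNT and GPD2, which overlapped at 8.77, 8.67 and 8.54, and GPD1L (3.08). NAMPT held the third place at both doses, against the first in DMSO. In DMSO the 9 genes lay between the 43.1 percentile (GPD1L) and the 96.1 percentile (NAMPT) of protein-coding genes.

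Across the 9 libraries, which fall into the 3 groups, the closest pair among the 9 was NNT with NAMPT (Pearson r = 0.988), and GLUD1 ran with ME1 (0.954) and with GOT1 (0.950). GOT2 ran against NAMPT (-0.602). Among 6766 other protein-coding genes with a mean of at least 5 FPKM (6767 for GPD1L), the closest by Pearson r of log2 FPKM was GSTO1 for GOT1 (0.999), CALM2 for GOT2 (0.994) and UBQLN1 for GPD1L (0.986). It was RECQL for GPD2 (0.991), SLC6A6 for NNT (0.999), VPS11 for ME1 (0.993) and ACSL3 for ME2 (0.986). GLUD1 ran closest with ANXA3 (0.993) and NAMPT with TMEM245 (0.998). These are descriptions over libraries that share depth and dose.

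The malate-aspartate shuttle list was mostly higher at 25 nM. Of its 8 tested genes, GOT1 and GOT2 among them, 6 rose and 1 fell at 25 nM (median log2 fold change 0.21). At 50 nM 2 rose and 1 fell (median -0.02). Without 25 nM replicate 3, 6 were called in all at 50 nM, where 10122 of 15541 genes were. As for all lists that follow, the shares of all genes tested were 26.3% higher and 25.8% lower at 25 nM and 29.2% higher and 31.5% lower at 50 nM. The list had 75% higher and 12.5% lower at 25 nM and 25% and 12.5% at 50 nM. The malate dehydrogenases MDH1 (cytosolic) and MDH2 (mitochondrial) rose at 25 nM (log2 0.21 and 0.25, adjusted p = 0.00792 and 0.00650) and were at -0.04 and 0.00074 at 50 nM. The aspartate-glutamate carriers parted: SLC25A12 rose at 25 nM (0.21, adjusted p = 0.00795), and SLC25A13 fell at 25 nM (-0.33) and at 50 nM (-0.23, adjusted p = 0.00313). SLC25A22, a glutamate carrier, rose at both doses (0.79 and 0.81, adjusted p = 3.56e-05 and 1.41e-05). It is in the list but not part of the shuttle itself. With GOT2 it made up the 2 genes of the list that rose at 50 nM.

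**Figure D5:**
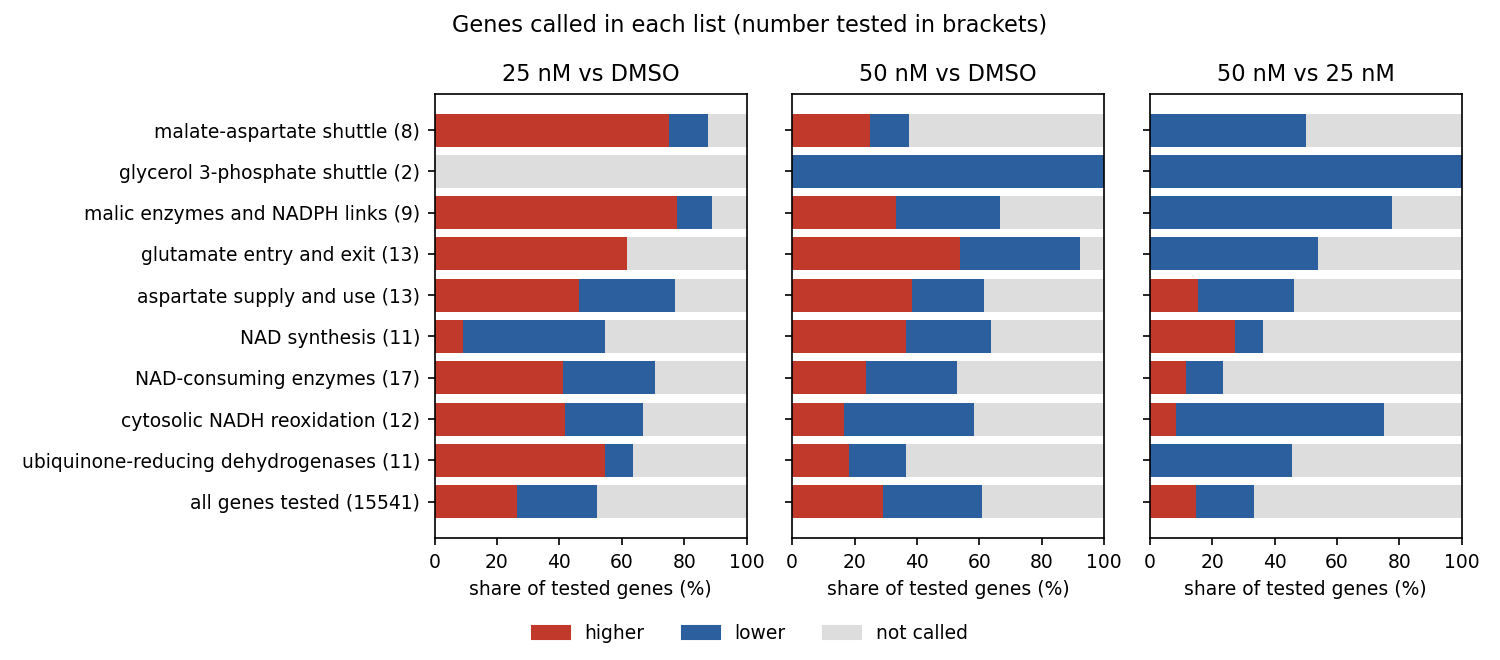
Share of tested genes (horizontal axis, %) called higher (red), lower (blue) or not called (grey) in 9 gene lists, with all genes tested in the bottom row, for the 3 comparisons; the number tested is in brackets. At 25 nM 75% of the malate-aspartate shuttle list is called higher against 26.3% of all genes, and at 50 nM 25% against 29.2%.

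Among malic enzymes and NADPH-linked enzymes, 7 of 9 tested genes rose and 1 fell at 25 nM (median 0.21), and 3 rose and 3 fell at 50 nM (median -0.02). ME1, ME2 and NNT are in this list, and the 25 nM calls of ME1 and ME2 sat at the threshold. With genes filtered at 1 FPKM in all libraries, 5 rose and 1 fell at 25 nM, where 3437 of 11048 genes rose and 3568 fell. In the fit of 15541 genes, the shares of the list were 77.8% higher and 11.1% lower at 25 nM. At 50 nM they were 33.3% each way, close to the shares of all genes (29.2% and 31.5%). ME3, the third malic enzyme, rose at both doses, to 6.06 FPKM at 25 nM and 7.16 FPKM at 50 nM, against 4.12 FPKM in DMSO (log2 0.54 and 0.78, adjusted p = 0.00153 and 1.19e-04). MTHFD2, of mitochondrial folate metabolism, rose by 0.54 at 25 nM and 0.22 at 50 nM. IDH2, the mitochondrial NADP-dependent isocitrate dehydrogenase, fell at 50 nM (-0.38, adjusted p = 4.09e-04). Between the doses 7 of the 9 were lower and none higher, where 18.8% of all genes were lower and 14.7% higher. With fragment totals 4 were called in all and with nuclear coding fragments 3, where 4941 and 5082 of 14604 genes were called.

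Of 13 tested genes of glutamate entry and exit, 8 rose and none fell at 25 nM (median 0.26), and 7 rose and 5 fell at 50 nM (median 0.13). The shares were 61.5% higher at 25 nM, against 26.3% of all genes, and 53.8% higher and 38.5% lower at 50 nM, against 29.2% and 31.5%. Of protein-coding genes 25.7% were higher and 39.9% lower at 50 nM. PSAT1, which uses glutamate in serine synthesis, rose by 0.99 at 25 nM and 0.84 at 50 nM (adjusted p = 2.05e-06 and 1.98e-06). The glutamine importer SLC1A5 rose by 0.55 and 0.38. GPT2, which makes alanine from glutamate, and ALDH18A1, of proline synthesis, fell at 50 nM (-0.32 and -0.41).

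For aspartate supply and use, 6 of 13 tested genes rose and 4 fell at 25 nM, and 5 rose and 3 fell at 50 nM. The shares were 46.2% higher and 30.8% lower at 25 nM, against 26.3% and 25.8% of all genes, and 38.5% and 23.1% at 50 nM, against 29.2% and 31.5%. ASNS, which turns aspartate into asparagine, averaged 21.0 FPKM at 25 nM and 18.0 FPKM at 50 nM, against 9.96 FPKM in DMSO (log2 1.07 and 0.85, adjusted p = 6.76e-06 and 9.50e-06). CAD, which starts pyrimidine synthesis from aspartate, rose by 0.21 and 0.51. ASS1, which joins aspartate to citrulline, fell by 0.51 and 0.54 on the log2 scale, and the importer SLC1A1 fell by 0.50 and 0.71.

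In NAD synthesis 1 of 11 tested genes rose and 5 fell at 25 nM (median -0.15), and 4 rose and 3 fell at 50 nM (median -0.05). At 25 nM 9.09% were higher and 45.5% lower, against 26.3% and 25.8% of all genes, and at 50 nM 36.4% and 27.3%, close to the 29.2% and 31.5% of all genes. NAMPT, NMNAT1 (the nuclear enzyme that completes NAD+; log2 -0.62 and -0.66) and NMRK1 (nicotinamide riboside kinase; -0.39 and -0.53) fell at both doses. NAPRT, which starts from nicotinic acid, rose at both (0.39 and 0.66, adjusted p = 0.0117 and 5.68e-04). QPRT, of synthesis from tryptophan, did not pass (0.03 and -0.11). The list also holds the carrier SLC25A51 and the NAD+ kinases NADK and NADK2. SLC25A51 and NADK2 fell at 25 nM, and NADK rose at 50 nM.

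Of 12 tested genes in the list for cytosolic NADH reoxidation, 5 rose and 3 fell at 25 nM, and 2 rose and 5 fell at 50 nM. The list is broader than enzymes of that step, as it also holds SLC16A1, CTBP1, CTBP2 and VKORC1L1. Of these, SLC16A1 and CTBP2 fell at both doses, VKORC1L1 fell at 50 nM and CTBP1 rose at 50 nM. At 25 nM 41.7% were higher, against 26.3% of all genes, and 25% lower, close to the 25.8% of all genes. At 50 nM 16.7% were higher and 41.7% lower, against 29.2% and 31.5% of all genes and 25.7% and 39.9% of protein-coding genes. The lactate dehydrogenase subunits parted. LDHA averaged 449 FPKM at 25 nM and 319 FPKM at 50 nM, against 551 FPKM in DMSO (log2 -0.29 and -0.79, adjusted p = 0.00198 and 4.89e-06). LDHB averaged 480 FPKM at 25 nM and 393 FPKM at 50 nM, against 383 FPKM in DMSO (0.32 and 0.04, adjusted p = 7.97e-04 and 0.564). The lactate exporter SLC16A1 fell at both doses (-0.50 and -0.75), and the quinone reductase NQO1 rose at both (0.51 and 0.38).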

How the data were processed

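The authors deposited a table of FPKM for 30673 genes and a filtered table of log2 FPKM for 18859 genes, with symbol, position and exon length. The reads were aligned to hg38, per the submitters' processing notes. Aligner, annotation release, RNA selection and strandedness: not given in the sources used here. Although named for read counts, the larger table holds no raw counts. For the 18859 genes of the filtered table, deposited FPKM times length was divided by a step fitted in each library. The results were whole numbers within 0.01 for 100% of these genes and were taken as fragments.

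The 15541 genes that reached 0.5 FPKM in 3 or more libraries were fitted on log2(FPKM + 0.1) with limma 3.58.1 in R 4.3.3 (lmFit and eBayes, both its trend and robust options on), over all 9 libraries with group as the only term. Benjamini-Hochberg adjustment ran over all genes tested, and a gene was called at an adjusted p under 0.05. Fold changes are on that log2 scale, which understates those of low genes. Ratios were tested by exact two-sided permutation. The fit was tested on simulated data. Exon overlaps came from GENCODE release 29 and promoter bases from RefSeq.

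The 9 genes and the gene lists were chosen with earlier results of these data known. The lists hold the 9 genes and share genes with each other, so their counts are not independent. GOT1, GOT2, SLC25A12 and SLC25A13 are in both the shuttle and aspartate lists. GPD1L and MDH1 are also under cytosolic NADH reoxidation and GPD2 under the ubiquinone list. Of each list, the 2 genes with the smallest p at 50 nM and 1 of the other direction were named, besides carriers, malate dehydrogenases, GPD1, ME3, ASNS, LDHA and LDHB; 1 further gene is not reported here. MTHFD2, IDH2, SLC1A5, GPT2, CAD, ASS1, NMNAT1, QPRT, TNKS, SIRT1, SIRT6, SIRT7 and the SDH subunits were named after their values were seen. So were CTBP1, CTBP2, VKORC1L1, ETFA, NNMT, SLC25A51, NADK and NADK2. Replicate numbers did not pair the libraries: correlations of same-numbered libraries were -0.0469 to 0.0793. Fragment-based errors cover counting only.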

Additional observations from a re-analysis of the deposited data

Results flagged for a closer look

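ME1 and GLUD1 were called in opposite directions against DMSO at the 2 doses, higher at 25 nM and lower at 50 nM. Tested directly, the difference of 50 nM from 25 nM was -0.20 on the log2 scale for ME1 (adjusted p = 0.00415, limma with Benjamini-Hochberg adjustment) and -0.32 for GLUD1 (adjusted p = 4.28e-04), lower in 3 of 3 libraries each. Scaled by fragment totals, the difference was -0.10 for ME1 (adjusted p = 0.122) and -0.22 for GLUD1 (adjusted p = 0.00112). Under that scaling the opposite calls did not hold: at 50 nM against DMSO the values were -0.03 for ME1 (adjusted p = 0.630) and -0.03 for GLUD1 (adjusted p = 0.524), and at 25 nM ME1 was at 0.08 (adjusted p = 0.213) and GLUD1 at 0.19 (adjusted p = 0.00149). The cause was not tested.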

How the results depend on the processing

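NNT and NAMPT lower at both doses, and GOT2 and GLUD1 higher at 25 nM, kept their calls under all 18 alternatives (pseudocounts, filters, scalings, variance model, 2 groups only, replicate block and 9 left-out libraries). Of 486 alternative values of the 9 genes, 385 kept call and direction, 92 lost the call, 4 gained one and 5 changed sign. Scaling by nuclear coding fragments, chosen after seeing the data, left 4 genes called at 50 nM against DMSO, not 7, and turned GOT1 to 0.0069, ME1 to 0.033, ME2 to 0.028 and GLUD1 to 0.030. Between the doses 4 of 9 were called with either other scaling. With 1 library left out, the number called was 4 to 6 at 25 nM and 4 to 9 at 50 nM against DMSO. Over all genes it was 6834 to 8014 at 25 nM and 8331 to 10122 at 50 nM. Between the doses all genes called were 3441 (without 50 nM replicate 1) to 5829, beside 5205. GPD2 at 25 nM was then -0.14 to 0.028. With 1 library left out, log2 ratio differences were -0.018 to 0.031 for GOT2 over GOT1 and -0.13 to 0.012 for GPD1L over GPD2 between the doses. For ME2 over ME1 they were -0.047 to 0.038 at 25 nM and -0.029 to 0.013 at 50 nM against DMSO, and -0.042 to 0.043 between the doses; with a pseudocount of 1 the 50 nM value was 0.000845. With the replicate number as a block, though the numbers do not pair the libraries, 5, 5 and 8 of the 9 genes were called, and over all genes 7640, 9107 and 4587. Fits of the 2 groups only called 6 genes of the malate-aspartate shuttle list at 50 nM, against 3, and 7 of the ubiquinone list, against 4. The counts without 25 nM replicate 3 were 6 and 7. Over all 15541 genes these fits called 9987 and 10122, against 9441. With nuclear coding fragments 4 genes of the cytosolic NADH reoxidation list were called between the doses, against 9. Over all genes the counts were 5082 of 14604, against 5205 of 15541. The cause of these shifts was not tested. At 3 libraries a group, changes near 0.1 on the log2 scale sat at the threshold.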

Other observations

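Among 17 tested genes in the list for NAD+ consumption, 7 rose and 5 fell at 25 nM against DMSO (median log2 fold change 0.12), and 4 rose and 5 fell at 50 nM (median 0.02). The list also holds NNMT, which acts on nicotinamide and rose at 25 nM. The shares were 41.2% higher and 29.4% lower at 25 nM, against 26.3% and 25.8% of all genes tested, and 23.5% and 29.4% at 50 nM, close to the 29.2% and 31.5% of all genes. PARP4, a poly(ADP-ribose) polymerase family member, averaged 18.0 FPKM at 25 nM and 14.7 FPKM at 50 nM, against 28.2 FPKM in DMSO (log2 -0.65 and -0.93, adjusted p = 2.01e-05 and 1.55e-06, limma with Benjamini-Hochberg adjustment). PARP2, a DNA damage sensor, averaged 5.94 FPKM at 25 nM and 6.88 FPKM at 50 nM, against 4.09 FPKM in DMSO (0.52 and 0.73). The tankyrase TNKS fell by 0.84 and 0.78 on the log2 scale. Among the sirtuins, SIRT1 fell at both doses (-0.47 and -0.50), and SIRT6 (0.35 and 0.41) and SIRT7 (0.31 and 0.48) rose at both.

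Of 11 tested genes in the list of ubiquinone-reducing dehydrogenases, 6 rose and 1 fell at 25 nM (median 0.19), and 2 rose and 2 fell at 50 nM (median -0.08). Without 25 nM replicate 3, 7 were called in all at 50 nM, where 10122 of 15541 genes were. The list also holds ETFA and ETFB, subunits of the electron transfer flavoprotein, which are not dehydrogenases. Both rose at 25 nM. The shares were 54.5% higher and 9.09% lower at 25 nM, against 26.3% and 25.8% of all genes, and 18.2% each way at 50 nM, against 29.2% and 31.5%. DHODH, which makes the pyrimidine precursor orotate, averaged 2.24 FPKM at 25 nM and 2.53 FPKM at 50 nM, against 1.67 FPKM in DMSO (0.40 and 0.57, adjusted p = 7.34e-04 and 6.17e-05). ETFB, of the electron transfer flavoprotein, rose at both doses at a low level (0.88 FPKM at 25 nM and 0.99 FPKM at 50 nM, against 0.39 FPKM in DMSO). PRODH, proline dehydrogenase, fell at both (-0.37 and -0.47). Of the succinate dehydrogenase subunits, SDHA, SDHB and SDHD rose at 25 nM (0.19, 0.35 and 0.25), and none of the 4 subunits passed at 50 nM in the limma fit of all 9 libraries, where 1 of them, SDHB, had an unadjusted p under 0.05 (0.0493).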
